A study of Saccharomyces cerevisiae with 5 samples.

Results

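The pheromone response and cell fusion genes described here are 10 genes of budding yeast, Saccharomyces cerevisiae, that act when a haploid cell prepares to mate: GPA1 (YHR005C), FUS3 (YBL016W), STE12 (YHR084W), FAR1 (YJL157C), SST2 (YLR452C), KAR4 (YCL055W), AGA1 (YNR044W), FUS1 (YCL027W), FUS2 (YMR232W) and PRM1 (YNL279W). They were taken by systematic name from the 6388 genes printed on the array, and all 10 had a probe. The set was chosen by function, with the log2 ratios of these arrays already known, that of PRM1 in bdf1Δ+HAL2 among them. The ratios of all 10 genes are therefore given as a description. The strains were compared in 3 ways on 5 arrays in all, and every culture had been under 0.5 mol/L NaCl for 45 min, so no unstressed level is among these values.

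The strain bdf1Δ lacks BDF1, which encodes a bromodomain protein that binds acetylated histones and takes part in transcription by RNA polymerase II. On 1 array bdf1Δ, labelled with Cy5, was compared with W303, a common laboratory strain, labelled with Cy3. The strain bdf1Δ+HAL2 is bdf1Δ with HAL2, which is called MET22 in the annotation and encodes the salt-sensitive phosphatase that removes 3′-phosphoadenosine 5′-phosphate. The strain bdf1Δhda1Δ lacks BDF1 together with HDA1, a histone deacetylase. Each of these strains was compared with bdf1Δ on 2 arrays with the dyes exchanged, so both comparisons share the bdf1Δ deletion on each side and the same kind of control. The test strain was in Cy5 on array 1 and in Cy3 on array 2. The sources used here do not give how HAL2 was introduced, how many clones stood for each strain or which mating type the strains had.

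In this pathway, a peptide pheromone from a cell of the opposite mating type binds a receptor at the surface, which frees the Gβγ subunits from the Gα subunit Gpa1. The signal passes through a mitogen-activated protein (MAP) kinase cascade on the scaffold Ste5 to the MAP kinase Fus3, which relieves the repression of the transcription factor Ste12. Ste12 then raises the genes for adhesion, cell fusion and nuclear fusion, while Far1 stops the cell cycle and Sst2 shuts the signal down. The cascade shares the kinases Ste20 and Ste11 with the osmosensing branch that activates Hog1. No label mentions added pheromone.

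By the labels' account, both arrays of an exchanged-dye pair were hybridised with 1 test and 1 control sample. Each comparison therefore holds 1 replicate, and no p-value was computed. An SD given below is the spread between both arrays of such a pair or, on the array with W303, between a gene's repeat spots, and it covers technical variation only. Each gene had 3 adjacent spots. Levels are given as net intensity, which is the median of a spot minus the median of its local background in scanner units, averaged over the 3 spots. They are not normalised, so a difference between the strains on an array also holds any difference between the dyes. On the array with W303 no exchange of dyes was made. Levels cannot be compared between genes, because each probe has its own brightness. A log2 ratio is test strain over reference strain after background correction and loess normalisation within the array. Spots were used if they were marked as found and the red or the green signal lay more than 2 background SDs above the local background. A gene was measured where at least 2 spots could be used on every array of the comparison. It was called higher or lower where the ratio passed 2-fold in the same direction on every array, the rule the labels state.

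The 5 arrays differed in how much could be seen. Between 32.9% and 72.9% of the 19164 gene spots were found, with the lowest shares on the arrays of bdf1Δhda1Δ, at 32.9% and 40.3%. With W303 as reference only 36.9% of the bdf1Δ spots exceeded background against 91.2% of the W303 spots, and the median log2 ratio before normalisation was -1.84, a shift that the loess removes. The targeted genes were set beside the labels. BDF1 stood at a net intensity of 12 in bdf1Δ and 530.5 in W303, with no bdf1Δ spot above background. MET22, which is not targeted in either strain, stood at 18 and 576.7 on that array, also with no bdf1Δ spot above background. After loess BDF1 was at -0.80 and MET22 at -0.82, both within 2-fold. With 1 loess curve per printing block BDF1 was at -1.01 and called lower, and MET22 was at -0.46, within 2-fold. Whether the array with W303 sets the deletion of BDF1 apart from MET22 thus depended on the normalisation. MET22 was 13.2-fold higher in bdf1Δ+HAL2 than in bdf1Δ, at a log2 ratio of 3.73 ± 0.15 (SD of 2 arrays). HDA1 had 0 spots above background in bdf1Δhda1Δ on both arrays, but bdf1Δ itself exceeded background in only 0 and 2 of the 3 spots. On both arrays 0 of the HDA1 spots were found, so no ratio was measured.

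Of the 10 genes, 2 were measured in bdf1Δ against W303 (PRM1 and FUS3), 4 in bdf1Δ+HAL2 against bdf1Δ (PRM1, FUS3, FAR1 and GPA1) and 1 in bdf1Δhda1Δ against bdf1Δ (FUS3). Of these, 1 was called, PRM1, higher in bdf1Δ+HAL2. Over all genes measured in that comparison, 19 of 4266 were called higher (0.445%) and 44 lower (1.03%). In bdf1Δ against W303, 0 of the 2 measured were called, while 587 of 3688 genes were called higher (15.9%) and 679 lower (18.4%). That split was 2 higher and 28 lower with scale normalisation and 31 higher and 2873 lower for the same filter in the authors' deposited table. In bdf1Δhda1Δ, 0 of the 1 measured was called, against 22 of 2074 genes higher (1.06%) and 13 lower (0.627%). The genes left unmeasured were dim: no spot was found on any array for 6, 4 and 9 of the 10 genes in the 3 comparisons, in that order. Most of the 10 genes could thus not be called in either direction. RNA came from whole cultures, so a level cannot show whether few cells carried much of an RNA or many carried little.

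**Figure D1:**
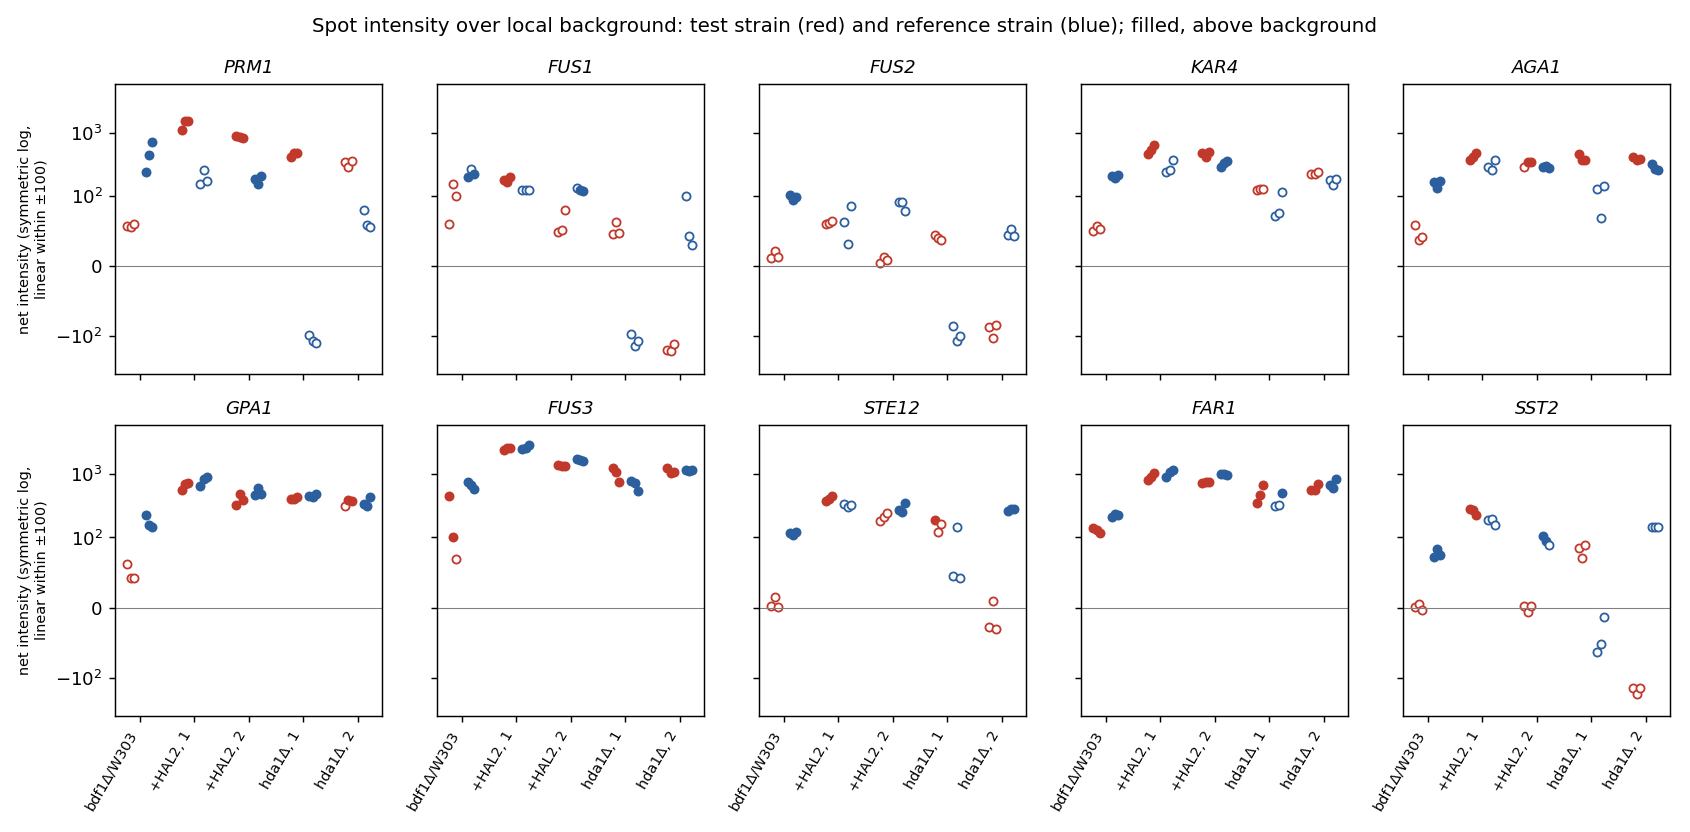
Net intensity of each of the 10 genes on the 5 arrays, with 3 spots per strain and array. The vertical axis is in scanner units on a symmetric log scale that is linear between -100 and 100, the test strain is red, the reference strain blue, and filled points exceed background. PRM1 lies between 814.5 and 1538 in bdf1Δ+HAL2 and between 155 and 255 in bdf1Δ on the same arrays, while FUS2 has no filled point in any test strain.

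PRM1 encodes a membrane protein of mating cells that acts where the plasma membranes of the partners fuse. In bdf1Δ+HAL2 its 3 spots on array 1 had net intensities from 1088 to 1538, against 157 to 255 in bdf1Δ. On array 2, with the dyes exchanged, they lay from 814.5 to 882.5 in bdf1Δ+HAL2 and from 155 to 206.5 in bdf1Δ. These spots repeat 1 sample per strain, and how many other genes keep the strains apart in this way was not counted. The log2 ratios of the spots were 1.73, 1.76 and 2.12 on array 1 and 1.95, 2.04 and 1.74 on array 2. PRM1 was called higher, with array means of 1.87 and 1.91 on the log2 scale and a mean of 1.89 ± 0.03 (SD of 2 arrays). The bdf1Δ level exceeded background in 3 of 3 spots on array 2 but in 0 of 3 on array 1, where PRM1 passed the filter through bdf1Δ+HAL2 alone. Both strains were therefore measured only on array 2, at 1.91, and the value of array 1 rests on a reference not well above background. When both channels had to exceed background PRM1 had no value in this comparison and the call was lost. The other 12 alternative treatments kept it above 2-fold, with log2 ratios from 1.56 without background correction to 2.19 with scale normalisation. In the authors' deposited table the ratios of PRM1 on the 2 arrays were 3.6 and 4.49.

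**Figure D2:**
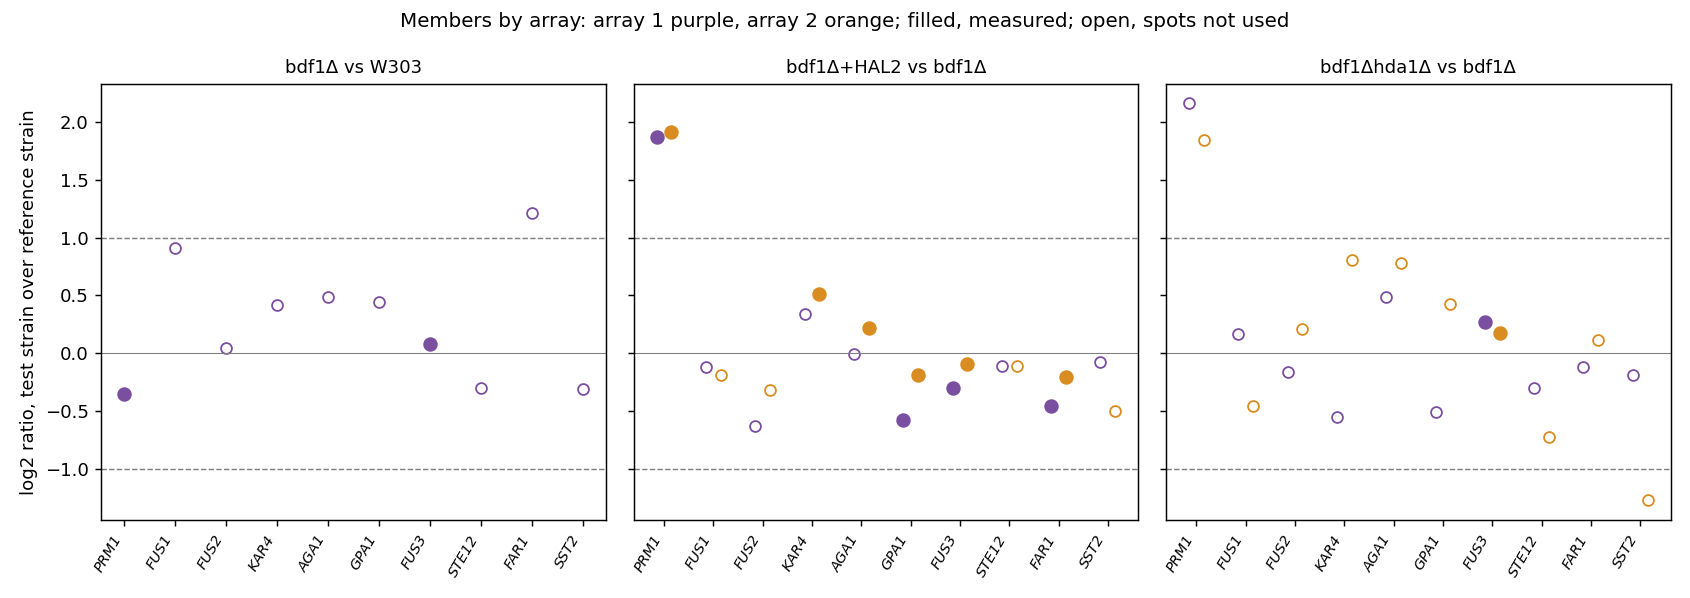
Log2 ratio of test over reference strain for the 10 genes in the 3 comparisons, with 1 point per array. Filled points have at least 2 used spots on that array and are given after global loess. Open points have fewer and are given with the loess fitted on all gene spots. Dashed lines mark 2-fold. KAR4 and AGA1 are filled on array 2 of bdf1Δ+HAL2 although they were not measured on both arrays. PRM1 in bdf1Δ+HAL2 is the only pair of filled points past a dashed line, at 1.87 and 1.91.

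In bdf1Δhda1Δ the software found 0 of the 3 PRM1 spots on either array, so PRM1 has no measured ratio there, although the spots were not empty. On array 1 bdf1Δhda1Δ had net intensities from 416 to 477, all 3 above background, while bdf1Δ lay between -128 and -98, below its local background. On array 2 the levels were 285.5 to 361.5 in bdf1Δhda1Δ and 55.5 to 80 in bdf1Δ, with no spot of either strain above background. The test strain was the brighter one in all 3 spots of both arrays, in both dyes. Before normalisation the log2 ratios were 1.88 and 2.17. With the loess fitted on all gene spots they were 2.16 and 1.84. Without the filter but with the loess fitted on found spots they were 2.58 and 0.88, and with 1 loess curve per printing block 2.27 and -2.02, so the sign on array 2 turned with that setting. At the brightness of PRM1 those curves had no data under them: 0.0% of found gene spots on either array were dimmer. In the authors' deposited table the ratios of PRM1 were 6.78 and 7.77. All these ratios come from spots that the filter leaves out and are set against bdf1Δ spots not above background, so they give no size of a difference, and PRM1 is not counted as called in bdf1Δhda1Δ.

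On the array with W303, PRM1 was dimmer in bdf1Δ in raw level, as were most genes. The log2 ratio of PRM1 before normalisation was -2.02, beside a median of -1.84 over the found gene spots of that array. The 3 W303 spots had net intensities of 241, 445.5 and 709.5, all above background, and the bdf1Δ spots lay from 55.5 to 60.5, none above background. After loess the 2 spots used had log2 ratios of 0.03 and -0.74, a mean of -0.36 ± 0.54 (SD of repeat spots), and the spot not found stood at 0.84. PRM1 passed the filter through W303 alone and was not called. With 1 loess curve per printing block the value was -1.67 and past 2-fold, and in the authors' deposited table it was -2.07 on the log2 scale, from a column that was not centred. With bdf1Δ not above background and repeat spots on both sides of 0, neither a fold nor a bound is given. Whether PRM1 passed 2-fold between bdf1Δ and W303 depended on the normalisation. The comparisons with bdf1Δ+HAL2 and bdf1Δhda1Δ have the same control strain, bdf1Δ. Whether 1 bdf1Δ sample served both is not known here, so their PRM1 values cannot be taken as independent of each other.

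**Figure D3:**
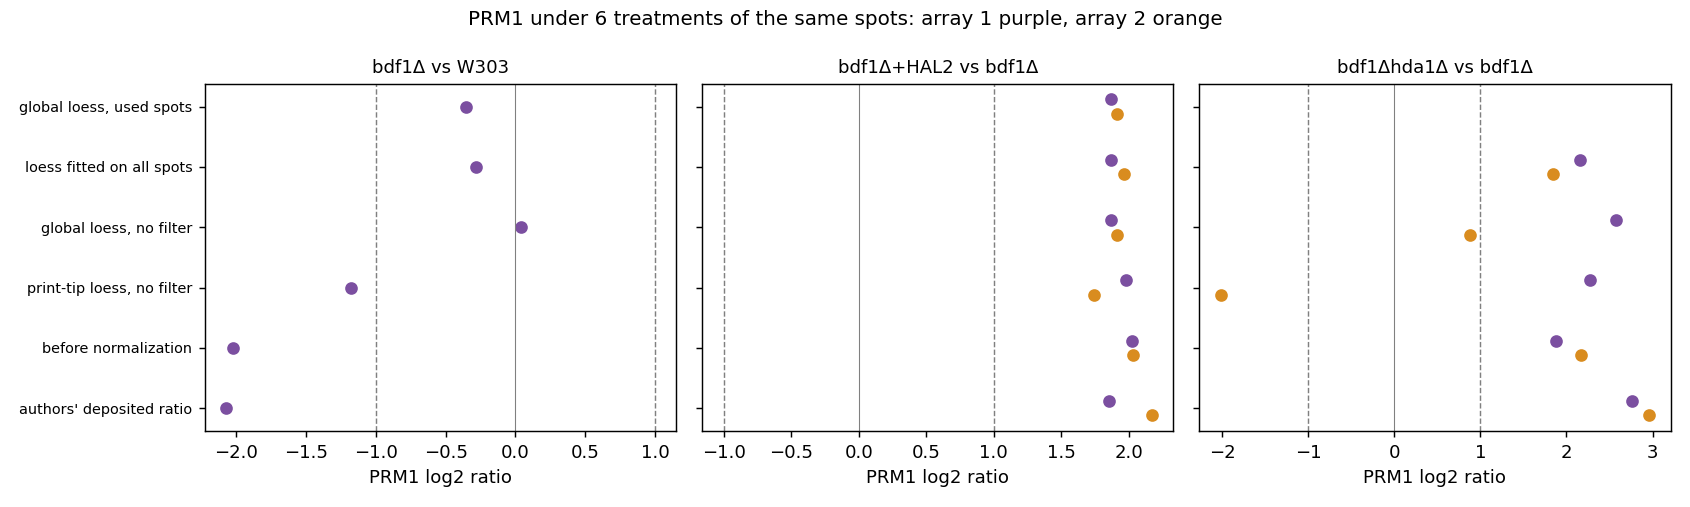
Log2 ratio of PRM1 in the 3 comparisons under 6 treatments of the spots, with 1 point per array and dashed lines at 2-fold. The points of bdf1Δ+HAL2 lie between 1.74 and 2.17 under the treatments shown, while those of bdf1Δhda1Δ run from -2.02 to 2.96 and those of bdf1Δ against W303 lie between -2.07 and 0.04.

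ERG24, which encodes the sterol C-14 reductase of ergosterol synthesis, lies next to PRM1 and is read in the opposite direction in the RefSeq annotation. It was looked up after the PRM1 values had been seen. Its log2 ratio was 0.12 ± 0.15 in bdf1Δ+HAL2, 0.27 ± 0.01 in bdf1Δhda1Δ (SD of 2 arrays) and -0.52 ± 0.21 in bdf1Δ against W303 (SD of repeat spots), within 2-fold in each. CAF120, on the other side of PRM1, stood at -0.10 ± 0.08 in bdf1Δ+HAL2 and 0.31 ± 0.11 in bdf1Δ against W303 and was not measured in bdf1Δhda1Δ.

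The other fusion genes gave little signal. FUS1 encodes a membrane protein at the tip of the mating projection that is needed for fusion. Its net intensity was 182.7 in bdf1Δ+HAL2 and 124 in bdf1Δ on array 1, and 60.33 and 126 on array 2. The strain in Cy5 was the brighter one on both arrays, so the order of the strains turned with the dye. In bdf1Δhda1Δ FUS1 lay at 52 and -157.5, with no spot above background, and bdf1Δ lay at -119 and 57.5. Against W303 the values of FUS1 were 104.7 in bdf1Δ and 227.8 in W303, with 0 and 2 of 3 spots above background. FUS2, whose product works beside Fus1 at the zone of cell fusion, was at 61.67 and 9 in bdf1Δ+HAL2, at 40.67 and -92.67 in bdf1Δhda1Δ and at 15 in bdf1Δ on the array with W303. None of those spots exceeded background, whereas W303 reached 98.67 with 3 of 3 spots above background. No difference in FUS1 or FUS2 between bdf1Δ and the strains derived from it could be detected at these intensities.

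KAR4 encodes a regulator that acts with Ste12 on genes of nuclear fusion. On array 1 its net intensity was 545.5 in bdf1Δ+HAL2 and 289.7 in bdf1Δ, and on array 2 it was 460.7 and 329. The bdf1Δ+HAL2 level was the higher one in both dyes. The log2 ratio was 0.52 ± 0.16 on array 2 (SD of repeat spots), the only array on which it was measured, and 0.34 on array 1 with the loess fitted on all gene spots. In bdf1Δhda1Δ KAR4 lay at 127.8 and 229.5 against 88.17 and 172.5 in bdf1Δ, with no spot above background. W303 gave 205.5 against 53.17 in bdf1Δ.

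AGA1 encodes the cell wall anchor of the a-agglutinin that holds mating cells together. It had net intensities of 422.3 and 326.5 in bdf1Δ+HAL2 against 302.3 and 285.8 in bdf1Δ, and a log2 ratio of 0.22 on array 2, where it was measured. In bdf1Δhda1Δ it lay at 402 against 114.2 on array 1 and at 393.7 against 279.7 on array 2. The test strain was above bdf1Δ in mean net intensity on all 4 of these arrays. After normalisation that order did not hold on array 1 of bdf1Δ+HAL2, where the log2 ratio of AGA1 was -0.0051 with the loess fitted on all gene spots and -0.20 with 1 curve per block. No AGA1 spot was used in bdf1Δhda1Δ, and with the loess fitted on all gene spots the log2 ratios there were 0.49 and 0.78, below 2-fold. In the authors' deposited table the AGA1 ratios were 0.824 and 1.11 for bdf1Δ+HAL2 and 2.54 and 1.67 for bdf1Δhda1Δ. AGA1 on the array with W303 stood at 45.83 in bdf1Δ and 155.5 in W303.

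Among the signalling genes FUS3, the MAP kinase of the pathway, was the only one measured in all 3 comparisons, and it stayed within 2-fold in each. Its net intensity was 2580 in bdf1Δ+HAL2 and 2719 in bdf1Δ on array 1, and 1377 and 1695 on array 2. The log2 ratio was -0.20 ± 0.15 (SD of 2 arrays, at -0.30 and -0.10). In bdf1Δhda1Δ FUS3 stood at 1027 against 692.7 and at 1138 against 1152, with log2 ratios of 0.27 and 0.18 and a mean of 0.23 ± 0.07 (SD of 2 arrays). Over all measured genes, ratios between the percentiles 5 and 95 ran from -0.59 to 0.49 in bdf1Δ+HAL2 and from -0.47 to 0.48 in bdf1Δhda1Δ, and FUS3 lay inside that range in both. On the array with W303 its 3 spots in bdf1Δ ran from 69.5 to 446.5 and those in W303 from 585 to 756.5. The ratio there was 0.08 ± 0.71 (SD of repeat spots), a spread that covers 0, and -0.80 with 1 loess curve per printing block.

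GPA1, the Gα subunit, had net intensities of 658.3 in bdf1Δ+HAL2 and 802.2 in bdf1Δ on array 1, and of 402.2 and 524.7 on array 2. The bdf1Δ level was the higher one in both dyes, with log2 ratios of -0.57 and -0.18 and a mean of -0.38 ± 0.28 (SD of 2 arrays). In bdf1Δhda1Δ GPA1 lay at 413.7 against 457.7 and at 363.5 against 363.7, and its spots were not used. GPA1 against W303 stood at 48.67 in bdf1Δ, with 0 of 3 spots above background, and at 177.3 in W303.

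FAR1 encodes the inhibitor that arrests the cell cycle in G1 and helps to direct growth towards the mating partner. It had net intensities of 936.3 in bdf1Δ+HAL2 and 1060 in bdf1Δ on array 1, and of 750.2 and 994.8 on array 2, with log2 ratios of -0.46 and -0.20. The mean was -0.33 ± 0.18 (SD of 2 arrays), place 3741 from the highest of 4266 genes and within 2-fold. In bdf1Δhda1Δ the levels were 502.5 against 380.5 and 606 against 705.7, so the order turned with the dye, and no spot was used. FAR1 on the array with W303 stood at 129.2 in bdf1Δ and 225.3 in W303, with 3 of 3 spots above background in both. Only 1 spot was found there, and with the loess fitted on all gene spots the log2 ratio was 1.21, opposite in sign to the raw levels, on an array whose gene spots stood at a median of -1.84 before normalisation.

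STE12, the transcription factor, and SST2, which encodes the protein that speeds Gpa1 back to its inactive state, were not measured in any comparison. STE12 lay at 412.7 in bdf1Δ+HAL2 against 325.5 in bdf1Δ on array 1 and at 214.7 against 291.8 on array 2. In bdf1Δhda1Δ it lay at 159.7 against 77.83 and at -16 against 276.8. SST2 lay at 259.7 against 183.3 and at -0.5 against 96.33 in bdf1Δ+HAL2, and at 81.33 against -42.67 and -157 against 147.7 in bdf1Δhda1Δ. For both genes the strain in Cy5 was the brighter one on all 4 arrays, so no order of the strains can be read from them. On the array with W303 STE12 stood at 6.17 and 116 and SST2 at 0.5 and 76.5 in bdf1Δ and W303.

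With no filter on spots all 10 genes have a ratio, although most of those ratios come from spots near background. With the loess fitted on all gene spots, 1 of the 10 was past 2-fold higher on every array in each comparison and 0 lower: FAR1 in bdf1Δ against W303, and PRM1 in bdf1Δ+HAL2 and in bdf1Δhda1Δ. Of all 6388 genes, that treatment put 9.91% higher and 13.8% lower in bdf1Δ against W303, 0.407% and 0.767% in bdf1Δ+HAL2, and 0.767% and 0.204% in bdf1Δhda1Δ. In the authors' deposited table, with no filter, 0 of the 10 were higher and 8 lower in bdf1Δ against W303, where 0.502% of its 6377 genes were higher and 83.2% lower. In bdf1Δ+HAL2 the authors' deposited table had 1 higher, PRM1, and 0 lower, against 0.91% and 1.52% of its genes. For bdf1Δhda1Δ the authors' deposited table had 2 higher, PRM1 and FUS2, and 1 lower, FUS1, against 1.87% and 0.847% of its genes. The authors' deposited table gave ratios of 2.19 and 3.21 for FUS2 and of 0.335 and 0.106 for FUS1 on those 2 arrays. Neither gene had a spot above background there in either strain, and for both genes the order of the net intensities turned with the dye.

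As a group, the measured genes had a median log2 ratio of -0.14 (2 genes) in bdf1Δ against W303, -0.26 (4 genes) in bdf1Δ+HAL2 and 0.23 (1 gene) in bdf1Δhda1Δ. The medians over all measured genes were -0.00, 0.00 and 0.01. In bdf1Δ+HAL2 3 of the 4 measured genes lay below 0, all within 2-fold, and PRM1 lay above 0. With so few genes, none of the 3 called, whether PRM1 moved together with the signalling genes cannot be judged. By the rule for naming genes of like pattern, which needs a gene measured in all 3 comparisons and called in at least 1, none of the 10 qualified.

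The rest of the pathway was read from further lists. Of 20 other signalling genes, 18 were measured in bdf1Δ+HAL2, with 0 called higher, 0 called lower and a median log2 ratio of -0.09. They ran from AKR1, which encodes a negative regulator of the pathway, at 0.66 ± 0.05 to STE2, the receptor for α-factor, at -0.77 ± 0.01 (SD of 2 arrays). In bdf1Δhda1Δ 5 were measured and 0 called, from STE4, the Gβ subunit, at 0.25 to STE2 at -0.76 ± 0.14. In bdf1Δ against W303 10 were measured, 2 called higher and 1 lower, beside 15.9% and 18.4% of all measured genes. TEC1, the partner of Ste12 in filamentous growth, rose by 1.99 ± 0.81 (SD of repeat spots). STE5, the scaffold, was called higher although bdf1Δ did not exceed background there, so no fold is given. CDC42, the GTPase of cell polarity, was called lower at -1.02 ± 0.45, but stood at -0.05 with 1 loess curve per printing block.

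Of 23 other mating output genes, which act in cell fusion, nuclear fusion, polarity or the cell wall, 11 were measured in bdf1Δ+HAL2 and 6 in bdf1Δhda1Δ, with 0 called in either. In bdf1Δ+HAL2 they ran from GIC2, an effector of Cdc42, at 0.43 to CHS1, a chitin synthase, at -0.64. Of the genes named, like PRM1, for their regulation by pheromone, PRM5 stood at -0.59 there, PRM10 at -0.23 and PRM4 at -0.03. In bdf1Δhda1Δ, where PRM1 was not measured, PRM5 stood at -0.55 ± 0.08 and PRM8 at 0.03. Against W303, 11 were measured, 2 called higher (GIC2 at 1.15 ± 0.66 and PRM4 at 1.29 ± 0.07) and 2 lower (RVS161, needed for cell fusion, and SCW10, a cell wall protein). Of all genes measured there, 15.9% were called higher and 18.4% lower. RVS161 did not exceed background in bdf1Δ, so no fold is given. SCW10 fell by 2.38 on the log2 scale and stayed past 2-fold at -1.27 with 1 curve per block. Scale normalisation keeps the order of the genes on this array and called 28 of all genes lower. SCW10, at place 114 from the lowest, was not among them. With 1 curve per block GIC2 and PRM4 stood at 0.25 and -0.03, and RVS161 was not called.

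**Figure D4:**
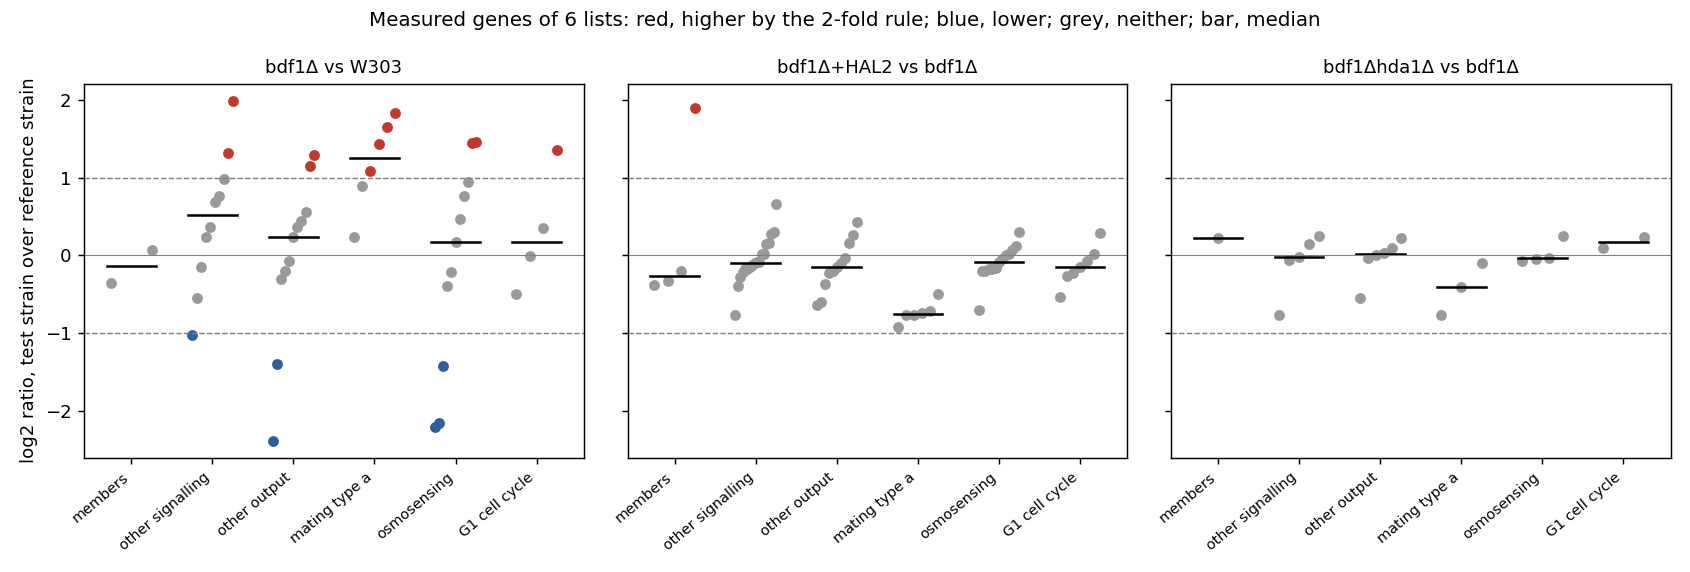
Log2 ratio of the measured genes of 6 lists in the 3 comparisons, with 1 point per gene and a bar at the median of each list. Red points were called higher, blue lower and grey neither. In the panel of bdf1Δ+HAL2 the only red point is PRM1, and the 6 measured mating type a genes lie below 0 with a median of -0.75.

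Genes that mark the mating type were read as a check on the cells. Over the 9 channels that hold bdf1Δ or a strain derived from it, at least 2 of 3 spots exceeded background in 9 channels for STE2, STE6 and MFA2, 8 for AGA2, 7 for MFA1, 6 for BAR1 and 2 for ASG7, the genes of mating type a. Of the genes of mating type α, STE3 and MF(ALPHA)1 exceeded background in 0 of the 9, MF(ALPHA)2 in 2, MATALPHA1 in 3 and SAG1 in 6. W303 exceeded background in 3 of 3 spots for every gene of both lists except MF(ALPHA)1, with 0. Over all gene spots, 91.2% exceeded background in W303 and from 36.9% to 90.6% did so in the 9 other channels. The summed net intensity of the a genes was 12760 in bdf1Δ+HAL2 against 17160 in bdf1Δ on array 1 and 8147 against 16910 on array 2. It was 6988 against 8476 and 7630 against 12030 in bdf1Δhda1Δ, and 2523 in bdf1Δ against 3645 in W303. The sum of the α genes was 1341 against 934.2 and 940.2 against 1016 in bdf1Δ+HAL2, 445.3 against -198.3 and 43 against 579.7 in bdf1Δhda1Δ, and 339.2 against 1092 on the array with W303. The α sum followed the dye in both pairs, while the a sum was lower in the test strain on all 4 arrays with exchanged dyes.

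In bdf1Δ+HAL2 all 6 measured a genes lay below 0 with a median of -0.75, against 3 of 4 of the pheromone response and fusion genes. BAR1, the protease that degrades α-factor, stood at -0.92 ± 0.05 and STE6, the exporter of a-factor, at -0.50, and 0 of the 6 passed 2-fold on both arrays. In bdf1Δhda1Δ 3 were measured, all below 0, with a median of -0.40. In bdf1Δ against W303, 15.9% of all measured genes were called higher. Of the a genes 6 were measured there and 4 called higher: MFA1 at 1.43 ± 0.86 and MFA2 at 1.08 ± 0.33, which encode a-factor, BAR1 at 1.65 ± 0.33 and STE6 at 1.83 ± 0.04 (SD of repeat spots). With 1 loess curve per block 2 of them, MFA1 at 1.22 and MFA2 at 2.59, stayed past 2-fold, and the raw sums given above ran the other way. Scale normalisation called only 2 of all genes higher. These 4 a genes, at place 85 from the highest or further down, were not among them. Of the α genes, 2, 1 and 0 were measured in bdf1Δ against W303, bdf1Δ+HAL2 and bdf1Δhda1Δ, and 0 were called. SAG1 stood at 0.93 on the array with W303, and MATALPHA1 did not exceed background in bdf1Δ there. The part of these markers in the PRM1 values was not tested.

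The osmosensing genes, which share kinases with the pheromone pathway, had 0 called of 13 measured in bdf1Δ+HAL2 and 0 of 4 in bdf1Δhda1Δ. They ran from SSK2, a kinase of the Sln1 branch, at 0.30 to PTP2, a phosphatase of Hog1, at -0.70 in the former. In the latter they ran from PBS2, the kinase that activates Hog1, at 0.26 to MSB2, a membrane osmosensor, at -0.08. Of all genes measured in bdf1Δ against W303, 15.9% were called higher and 18.4% lower. Of the osmosensing genes 11 were measured there, with 2 called higher (HKR1 at 1.46 ± 0.35 and SSK2 at 1.44 ± 0.27) and 3 lower. Those called lower were HOG1, at -2.15 ± 0.22, YPD1, which relays phosphate to Ssk1, and PBS2 (SD of repeat spots). YPD1 and PBS2 did not exceed background in bdf1Δ, so no fold is given. With 1 loess curve per block HOG1, HKR1 and SSK2 stood at -0.91, 0.17 and 0.74, all within 2-fold. YPD1 and PBS2 stood at -0.16 and -0.29 under the same setting, also within 2-fold. That treatment called 2 others of this list, STE50, an adaptor of Ste11 that is also among the signalling genes, at 1.41 and SLN1, the osmosensing histidine kinase, at -1.02, which were within 2-fold under the global loess.

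Of 8 genes of G1 and Start, the point at which Far1 acts, 7 were measured in bdf1Δ+HAL2 and 2 in bdf1Δhda1Δ, with 0 called. They ran from CLN1 at 0.29 to CLN3 at -0.53 in bdf1Δ+HAL2, and stood at 0.24 for CLN2 and 0.10 for CDC28 in bdf1Δhda1Δ. CLN1, CLN2 and CLN3 encode G1 cyclins and CDC28 their kinase. Against W303, 4 were measured and 1 called higher, beside 15.9% of all measured genes. This was CLN3, which rose by 1.36 ± 0.60 (SD of repeat spots) and stayed at 1.33 with 1 loess curve per block. Scale normalisation called only 2 of all genes higher, and CLN3, at place 310 from the highest, was not among them.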

How the data were processed

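Total RNA was amplified linearly, copied to DNA and labelled with Cy5 or Cy3, per the labels' protocols. Per the file headers, the authors' scanner output lists a red and a green intensity for every spot and for the background around it. The authors' deposited table gives 1 linear ratio per gene and array. Each of its columns ran as test over reference (r = 0.81 to 0.94 with the scanner values across genes). Its column medians were 0.195 for bdf1Δ against W303, which was not centred, and 0.992 to 1.04 for the others, whose centring is unknown. No genome build is named, so no coordinates are given.

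Spot medians were corrected with normexp (offset 50) and normalised by global loess within each array in limma 3.58.1 (R 4.3.3), with weight 0 for control spots and spots not found. Ratios were turned to test over reference and spots averaged per gene, then arrays per pair. Tables were made with Python 3.11.15, NumPy 2.4.6 and pandas 2.3.3 and figures with matplotlib 3.10.9. The steps were tested on simulated data. Alternatives changed the normalisation, background correction, spot filter, call threshold, source of the ratio and arrays used. One channel or the other being dim, and the small number of arrays, limit the precision.

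The 10 genes and all lists were chosen with earlier results of these data known, and nothing here is independent support for PRM1. The genes named are all 10 members and, from each further list, the genes called past 2-fold or otherwise the highest and lowest measured. The targeted genes and neighbours of PRM1 are named too, and further list genes named beside them were chosen after their values were seen. Of 6388 gene probes, 5849 matched a RefSeq locus tag. The other names are those of the lists' own systematic names.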

Additional observations from a re-analysis of the deposited data

Results flagged for a closer look

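FUS3 had a log2 ratio of 0.226 in bdf1Δhda1Δ and lay below 0 in bdf1Δ+HAL2, on every array of each pair. The difference was not tested, and both comparisons have bdf1Δ as the control strain.

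Signal above background was also present in spots that no ratio uses. PRM1 had a net intensity of 456.7 in bdf1Δhda1Δ on array 1. KAR4 reached 545.5 and AGA1 422.3 in bdf1Δ+HAL2 on array 1, and AGA1 reached 402 in bdf1Δhda1Δ on array 1. In each case the test strain was in Cy5 and its 3 spots exceeded background while those of bdf1Δ did not. The part of the dye in these values was not tested. On array 2, with the test strain in Cy3, its mean net intensity was also the higher one for each of these genes, before normalisation. There no PRM1 spot of bdf1Δhda1Δ or bdf1Δ exceeded background, and the AGA1 spots of bdf1Δ+HAL2 and bdf1Δ overlapped.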

How the results depend on the processing

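Over the alternatives, 97 values of the group's counts and medians stayed near the main value and 19 moved, and none reversed a called value. In bdf1Δ against W303 the median of -0.14 became -1.24 with print-tip loess (1 curve per printing block), -1.41 in the authors' deposited table, 0.87 without the spot filter (10 genes) and -1.09 before normalisation. The number called lower went from 0 to 1 with print-tip loess, to 1 in the authors' deposited table and to 7 before normalisation. The number called higher went to 3 without the filter and to 1 with the loess fitted on all gene spots. In bdf1Δ+HAL2 the number called higher went from 1 to 0 when both channels had to exceed background, because PRM1 then had no value, and the median of -0.26 became -0.058 before normalisation. The median was -0.38 (4 genes) without array 2 and 0.063 (6 genes) without array 1, so these medians are over different genes. Leaving out either array kept PRM1 called, at 1.87 and 1.91. In bdf1Δhda1Δ the median of 0.23 became 0.34 with scale normalisation, 0.40 in the authors' deposited table, -0.13 without the filter, 0.011 with the loess fitted on all gene spots and 0.025 before normalisation. It ran from 0.18 to 0.27 with either array left out. The number called higher went from 0 to 1, PRM1, with the loess fitted on all gene spots and before normalisation. Those last treatments were chosen after seeing the data. The values for bdf1Δ against W303 and the unused spots rest on dim channels. The cause of the other shifts was not tested.

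Over all genes, the counts called higher and lower in bdf1Δ against W303 were 219 and 228 with print-tip loess, 2 and 28 with scale normalisation, 31 and 2873 in the authors' deposited table, 1010 and 1063 at 1.5-fold and 15 and 4206 before normalisation. There were 1564 higher without the filter and 280 lower with both channels above background. In bdf1Δ+HAL2 there were 32 higher with scale normalisation, 96 and 161 at 1.5-fold, 35 higher without array 1, and 36 and 70 without array 2. In bdf1Δhda1Δ there were 45 and 35 with scale normalisation, 59 and 48 at 1.5-fold, 49 higher with the loess fitted on all gene spots and 47 before normalisation. No paired analysis was possible because each comparison holds 1 replicate and no test was made.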
